A study of Homo sapiens with 8 samples.

Results

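The comparison is of ABCB5-positive with ABCB5-negative cells sorted from the colon cancer lines SW620, HT29 and HCT116, 1 array of each population from each line. It uses 6 of the 8 arrays of the study, taken as 3 pairs by cell line, and covers 16789 of 18417 genes, the rest being too dim. SW620 is labelled as a lymph node metastasis of colon carcinoma, HT29 as colon adenocarcinoma and HCT116 as colon carcinoma. The remaining pair, from COLO741, was left out because its pigment cell profile sets it apart from the colon lines, and it appears below where the lines' responses are compared. All cells grew untreated in RPMI medium with serum and antibiotics and were separated by flow sorting with an antibody against ABCB5. The labels name no separate cultures or sorts within a line, so the spread between pairs is the spread between lines, and part of it may be technical. The design text names SW480 and no SW620, and the line is called here as on the samples themselves.

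ABCB5 is a transporter of the ATP-binding cassette family, a large family of membrane pumps that move drugs, lipids and other small molecules with the energy of ATP. It was first described in pigment cells, where it marks slow-cycling cells of melanoma, and it has since been used as a surface marker of stem-like cells in the limbus of the eye and in tumours. The series title ties it to resistance of cancer cells against apoptosis, the programmed death that caspases carry out and BCL2 family proteins hold in check or release. The question of the comparison is which transcripts differ, within a line, between cells that carry the epitope and cells that do not.

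The arrays of all 3 lines carried the transcripts of colon epithelium. EPCAM, the epithelial adhesion molecule, lay between 13.32 and 13.77 on the log2 scale of the deposited values, and the keratin KRT8 between 14.23 and 14.75. Of 13 colon epithelium markers, 8 to 13 on each array exceeded 7.50, the 95th percentile of 360 olfactory receptor probe sets, which serve here as background because colon cells have little use for these odorant receptors. KRT20, a keratin of differentiated colonocytes, was above it in HT29, at 12.87 and 13.01, and below it in SW620 and HCT116. The melanocyte antigen MLANA lay between 5.75 and 6.44, while 5 to 10 of 21 melanocyte genes exceeded 7.50 on each array. Within a line the arrays correlated across genes at 0.995 in SW620, 0.996 in HT29 and 0.998 in HCT116. Differences between genes in level are not compared below, because probe sets differ in brightness.

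The transcript of ABCB5 itself was not measurable in these lines. ABCB5-negative and ABCB5-positive cells gave 5.25 and 5.35 in SW620, 5.36 and 5.24 in HT29, and 5.40 and 5.69 in HCT116. Every value was below 5.76, the median of the olfactory receptor probe sets, so the transcript gives no check of the sort labels. The difference, ABCB5-positive minus ABCB5-negative, averaged 0.088 ± 0.20 (SD, n = 3 lines), with an exact two-sided sign-flip permutation p of 0.75, where 3 lines cannot give a p below 0.25. In COLO741, by contrast, the transcript was bright, at 9.42 in the ABCB5-negative and 8.14 in the ABCB5-positive cells.

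No gene passed the test between the sorted populations of the 3 colon lines. With limma, a linear model per gene with the line as a block and moderated variances, 0 of 16789 genes (0%) had an adjusted p under 0.05, and the lowest adjusted p was 0.9929. At an unadjusted p under 0.05 there were 709 genes (4.22%), 386 of them higher (2.30%) and 323 lower (1.92%) in ABCB5-positive cells. Ordinary least squares gave 688 at the same unadjusted threshold, 283 of them higher, and also 0 after adjustment. A random block gave 324 higher of 686, and every probe set taken singly 468 higher of 1709. With each array centred on its median the higher genes were 596 of 789, and with quantile normalization 616 of 849. The balance of higher and lower genes thus turned with the method, and the directions below are therefore read beside the median over all genes, which was 0.0016 as deposited and 0.028 and 0.017 under those scalings. The median standard error of a gene's difference was 0.075. Mean differences of at least 1.5-fold were measured for 30 genes in the higher and 5 in the lower direction. In no gene did all 3 lines differ by that much the same way. Since no gene passed, every difference named below is a measurement whose adjusted p stayed above the threshold, and "higher" and "lower" give the sign of the values.

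The lines had little of their response in common. Differences of 1.5-fold or more were measured in SW620 for 291 genes in the higher (1.73%) and 103 in the lower direction (0.613%). In HT29 they were 206 (1.23%) and 63 (0.375%), and in HCT116 47 (0.280%) and 24 (0.143%). The standard deviation of the differences over genes was 0.24 in SW620, 0.20 in HT29 and 0.15 in HCT116. Across genes, the differences of SW620 correlated with those of HT29 at 0.059 and with those of HCT116 at -0.072, and those of HT29 and HCT116 correlated at 0.036. Genes are not independent replicates, and the coefficients only describe the arrays. The same sign was shared by 50.53% of genes between SW620 and HT29, by 45.33% between SW620 and HCT116 and by 52.75% between HT29 and HCT116. Over all 3 lines, 2004 genes were higher each time (11.9%) and 2079 lower each time (12.4%). The spread was larger among dim genes, at 0.29 in SW620 and 0.20 in HCT116 among the 4198 genes of lowest level, against 0.14 and 0.067 among the 4195 of highest level.

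**Figure D1:**
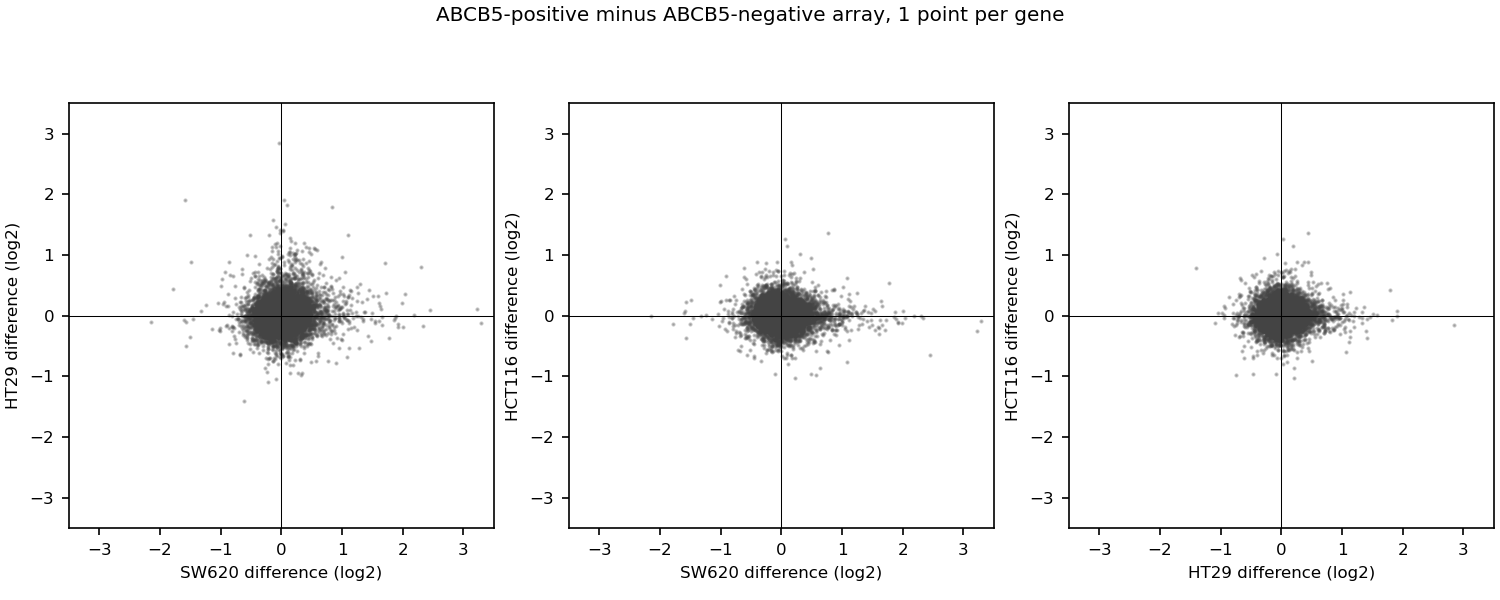
The log2 difference of each gene, ABCB5-positive minus ABCB5-negative, is plotted for 1 line against another, with 1 point per gene and 16789 genes in each panel. The clouds are round around 0, with arms along the axes where a gene differed in 1 line, and the correlations are 0.059, -0.072 and 0.036.

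SW620 and HT29 shared 14 of the genes that were 1.5-fold higher, which is 4.81% of the SW620 genes, where 1.23% of all genes were that much higher in HT29, and 6.8% of the HT29 genes, where 1.73% of all genes were in SW620. A further 5 of the genes higher in SW620 were 1.5-fold lower in HT29. Among the 14 shared genes was TGM2, tissue transglutaminase, which crosslinks proteins. It was at 9.15 in ABCB5-negative and 9.98 in ABCB5-positive SW620 cells, at 11.23 and 13.02 in HT29, and at 10.72 and 11.14 in HCT116. The positive array was the higher of the pair in every line, while the levels of the 2 populations overlapped between lines. The mean difference of TGM2 was 1.01 ± 0.70 (SD, n = 3 lines; limma adjusted p = 0.9929), a 2.02-fold difference that was largest in HT29. Also shared were GLIPR1, SLPI, a secreted protease inhibitor, NMU, the peptide neuromedin U, and WNT11, a Wnt ligand. WNT11 was 8.54 and 9.53 in SW620 and 9.29 and 10.26 in HT29, but 8.34 and 8.19 in HCT116. NMU was 7.06 and 8.01 in SW620, 6.80 and 7.42 in HT29, and 11.62 and 11.56 in HCT116. For both WNT11 and NMU the positive array was the higher in SW620 and HT29 and the lower in HCT116.

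In the lower direction SW620 and HT29 shared 4 genes, AGMO, ANXA10, GPR155 and SNORD20, which were 3.88% of the SW620 genes (0.375% of all genes were lower in HT29) and 6.35% of the HT29 genes (0.613% of all were in SW620). More of the genes lower in SW620, 9, were 1.5-fold higher in HT29. ANXA10, an annexin of gastric epithelium, is named here after its values were seen. It was 5.61 and 4.94 in SW620, 11.57 and 10.93 in HT29, and 7.57 and 6.99 in HCT116. The positive array was lower in each line by a similar amount, -0.63 ± 0.05 on average (SD, n = 3), but the SW620 values lie within the olfactory background. SW620 and HCT116 shared CXCR4 and TRIM29 in the higher direction, and HT29 and HCT116 shared LOC399975 and ZNF682 in the lower. Between SW620 and HCT116, 4 genes higher in SW620 were 1.5-fold lower in HCT116 and 4 ran the reverse way. CXCR4, a chemokine receptor, was 7.69 and 8.78 in SW620 and 6.72 and 7.35 in HCT116 but 10.97 and 10.30 in HT29, so that HT29 ran the other way.

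The 12 genes of smallest unadjusted p in each direction had 1 sign in all 3 lines, as the rule that chose them required, and their size varied between lines. UBE2C, the ubiquitin-conjugating enzyme of the anaphase-promoting complex, was at 10.94 in the negative and 11.47 in the positive cells of SW620, at 11.12 and 11.71 in HT29, and at 11.04 and 11.33 in HCT116. All 3 positive arrays exceeded all 3 negative arrays. UBE2C was chosen by its small p and 1 sign in every line, which favours such an order, and the share of all genes with it was not counted. The mean difference was 0.47 ± 0.16 (SD, n = 3 lines), a 1.38-fold difference with a limma unadjusted p of 0.0018 and an adjusted p of 0.9929. In COLO741 UBE2C was 10.82 and 11.31.

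SPNS2, the sphingosine-1-phosphate exporter, was 12.21 and 12.49 in SW620, 11.33 and 11.77 in HT29, and 8.34 and 8.70 in HCT116. PLAU, the urokinase that activates plasminogen outside the cell, was 9.14 and 9.66 in SW620, 7.82 and 8.38 in HT29, and 11.20 and 11.40 in HCT116. TRIM29, a tripartite motif protein of epithelia, was 10.55 and 11.32 in SW620, 11.85 and 12.29 in HT29, and 7.27 and 8.64 in HCT116. For these genes the lines lay far apart in level and the populations overlapped, while within each line the positive array was the higher. The mean differences were 0.36 ± 0.07 for SPNS2, 0.42 ± 0.20 for PLAU and 0.86 ± 0.47 for TRIM29 (SD, n = 3 lines). The TRIM29 difference was the largest of any gene of HCT116 among those above background there.

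Other genes higher in the positive cells of every line had mean differences of 0.31 to 0.60. ANKRD6, an ankyrin repeat protein of Wnt and planar polarity signalling, differed by 0.60 ± 0.28, and PRXL2A, a peroxiredoxin-like protein, by 0.54 ± 0.24. CDK1, the cyclin-dependent kinase of mitosis, differed by 0.37 ± 0.13. IFITM10, a member of the interferon-induced transmembrane family, differed by 0.34 ± 0.05, and LIAT1 by 0.31 ± 0.05. SPMIP5, MAB21L4 and B3GALT5, a galactosyltransferase of glycolipids and glycoproteins, complete the 12 of smallest unadjusted p. In COLO741, SPNS2, LIAT1 and SPMIP5 had the opposite sign.

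**Figure D2:**
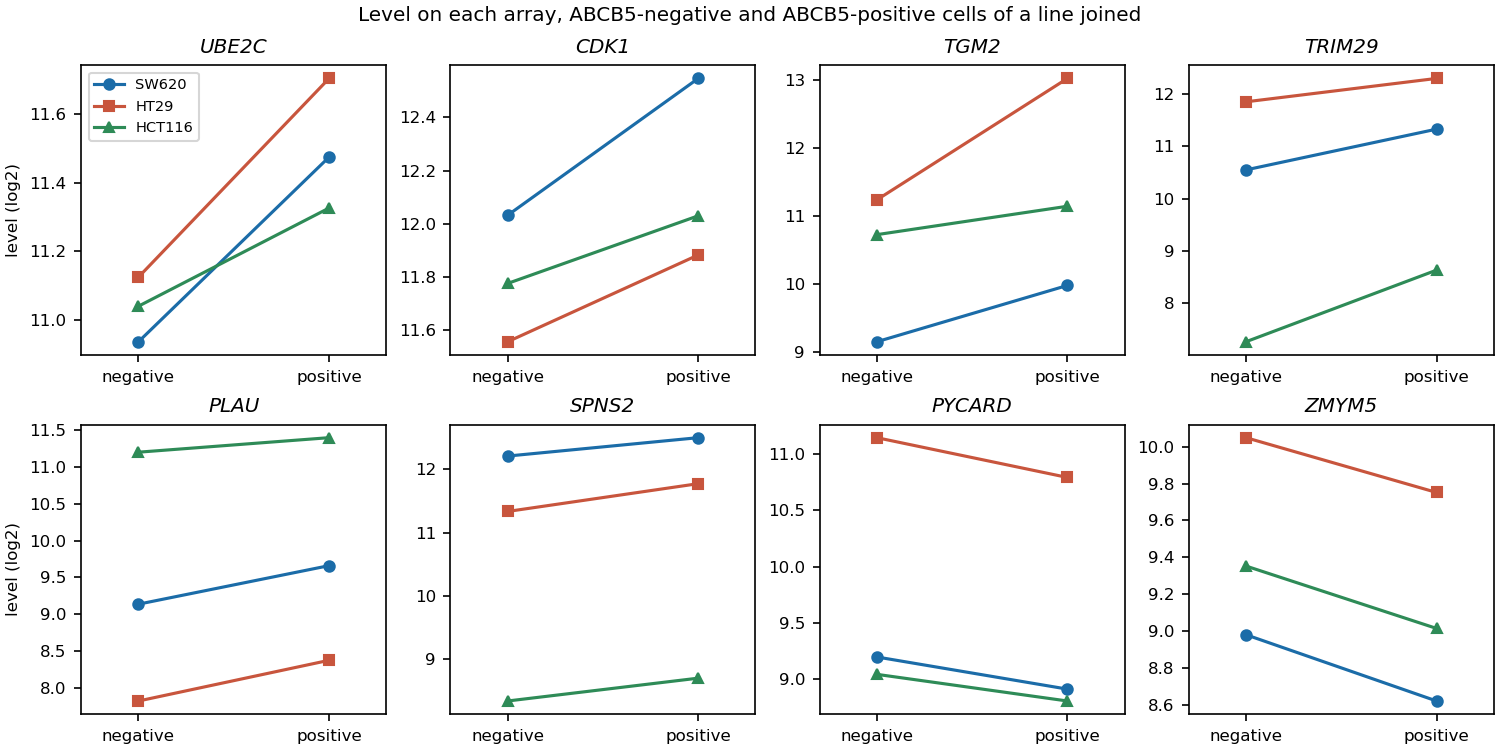
The log2 level of 8 genes is plotted for the ABCB5-negative and ABCB5-positive array of each line, joined by a line per cell line, with each panel on its own axis. UBE2C, CDK1, TGM2, TRIM29, PLAU and SPNS2 slope up in all 3 lines, and PYCARD and ZMYM5 slope down.

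In the lower direction the 12 genes of smallest unadjusted p had mean differences of -0.27 to -0.39. PYCARD, the inflammasome adaptor ASC, which joins sensors to caspase-1, was 9.20 and 8.91 in SW620, 11.15 and 10.79 in HT29, and 9.05 and 8.81 in HCT116. ZMYM5, a zinc finger protein, was 8.98 and 8.62 in SW620, 10.05 and 9.75 in HT29, and 9.35 and 9.01 in HCT116. In both genes the positive array was the lower of each pair, and the populations overlapped between lines. The mean differences were -0.29 ± 0.06 for PYCARD and -0.33 ± 0.03 for ZMYM5 (SD, n = 3 lines; limma unadjusted p = 0.0050 and 0.0023, adjusted p = 0.9929 for both). HOXA2, a homeobox gene, differed by -0.30 ± 0.04, and TOX3, a high mobility group box gene, by -0.27 ± 0.04. CCR10, a chemokine receptor, differed by -0.30 ± 0.09 and RPL32, a protein of the large ribosomal subunit, by -0.27 ± 0.07. SYT17, a synaptotagmin, differed by -0.37 ± 0.19 and LINC01089, a long noncoding RNA, by -0.38 ± 0.11. The remaining 4 were SNORA51, SNORD82 and SNORD59A, which are small nucleolar RNAs, and MIR4453HG, a microRNA host transcript.

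**Figure D3:**
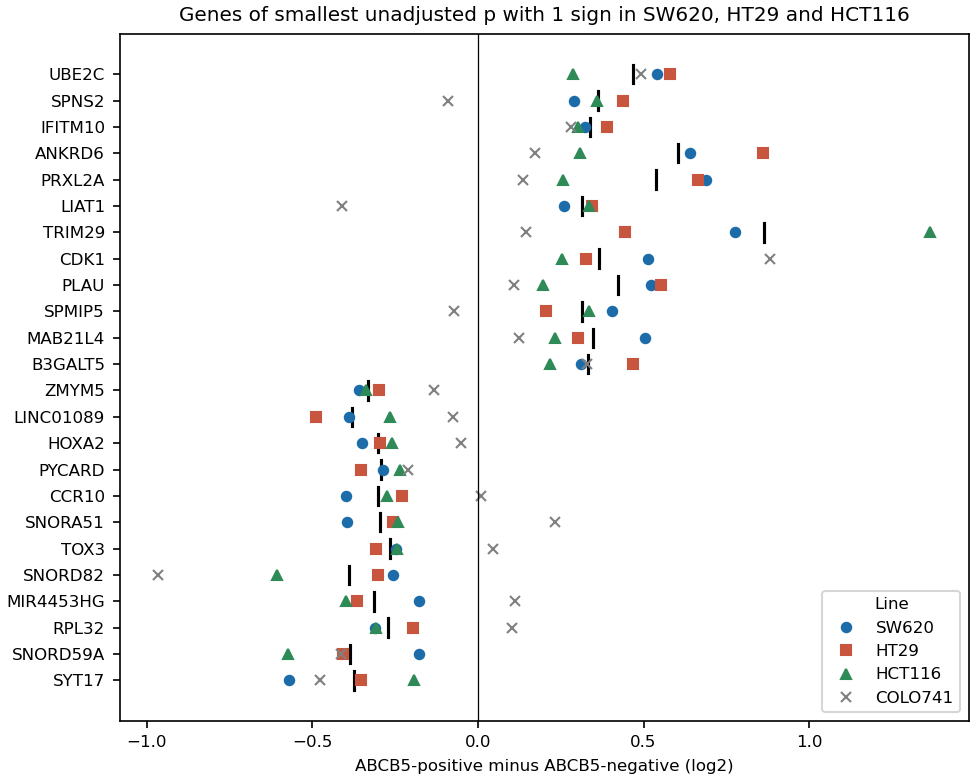
Log2 differences, ABCB5-positive minus ABCB5-negative, are plotted for the 12 genes per direction of smallest unadjusted p among those with 1 sign in all 3 colon lines. Coloured points are the 3 lines, the bar is their mean and the cross is COLO741, which took no part in the choice; its crosses lie on both sides of 0 among the upper as among the lower genes.

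Genes of G2 and mitosis were higher in the ABCB5-positive cells nearly throughout the list. Cells that approach division switch on cyclins, kinases and spindle proteins together, and these transcripts mark how many cells of a culture are in that phase. Of the 47 of 48 listed genes on the array, all above background, 45 had a higher mean (50.8% of all genes did), 32 were higher in every line (11.9% of all genes) and 0 lower in every line. With limma 0 passed and 12 had an unadjusted p under 0.05 (4.22% of all genes), all of them higher (2.30% of all genes). The median difference was 0.12 over the list. It was 0.21 in SW620, where 47 of 47 were higher (54.0% of all genes), 0.16 in HT29 with 42 higher (48.5% of all genes), and 0.034 in HCT116 with 34 higher (45.6% of all genes). Without SW620, 42 of 47 were higher, with a median of 0.10. In bulk arrays a larger share of cells in a phase and more RNA per cell cannot be told apart.

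UBE2C and CDK1, above, led the G2/M and mitosis genes. HJURP, the chaperone that loads the centromeric histone, was 11.14 and 11.72 in SW620, 11.50 and 12.02 in HT29, and 11.60 and 11.77 in HCT116. CCNF, cyclin F, was 10.47 and 10.95 in SW620, 10.76 and 11.19 in HT29, and 10.91 and 11.02 in HCT116. AURKB, the Aurora kinase of the chromosomal passenger complex, was 12.59 and 12.88, 11.97 and 12.31, and 12.45 and 12.55 in the same order. In these genes HCT116 had the smallest difference. The mitotic cyclins themselves moved less, with CCNB1 at 0.097 ± 0.22 and CCNB2 at -0.040 ± 0.13 (SD, n = 3), and PTTG1, securin, at -0.011 ± 0.12. The last of these and CCNB2 were the 2 of 47 with a lower mean.

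Promoters of G2/M genes are known for a pair of elements, the CHR, bound by the MuvB core of the DREAM complex, and the CCAAT box, bound by NF-Y. The promoters of CDK1 and HJURP are shown because these genes are among the 3 of smallest p in the list. Each runs from 250 bases before to 50 after the RefSeq start in GRCh38.p14, on the strand of the gene, CDK1 at chr10:60778081-60778380 on the plus strand and HJURP at chr2:233854486-233854785 on the minus strand. Capitals mark TTTGAA or TTCGAA, the CHR, and CCAAT, each searched on both strands, so that a CCAAT box of the other strand reads ATTGG.
CDK1: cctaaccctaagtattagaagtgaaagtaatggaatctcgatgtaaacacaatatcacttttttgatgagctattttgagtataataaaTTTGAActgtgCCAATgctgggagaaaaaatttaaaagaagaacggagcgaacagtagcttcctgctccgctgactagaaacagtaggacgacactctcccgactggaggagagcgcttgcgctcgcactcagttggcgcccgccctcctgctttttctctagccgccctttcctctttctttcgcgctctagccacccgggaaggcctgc
HJURP: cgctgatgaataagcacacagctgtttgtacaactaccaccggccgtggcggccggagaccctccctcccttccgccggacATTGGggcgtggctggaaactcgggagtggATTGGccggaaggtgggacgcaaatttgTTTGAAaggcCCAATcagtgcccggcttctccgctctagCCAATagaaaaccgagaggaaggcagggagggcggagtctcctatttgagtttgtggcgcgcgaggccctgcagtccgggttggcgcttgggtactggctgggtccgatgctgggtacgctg
The CHR letters were present in 29 of the 40 G2/M promoters matched (72.5%), against 12.2% of 13099 promoters of genes tested. CCAAT was present in 30 of 40 (75%), against 35.9%, and both elements in 24 of 40 (60%), against 5.02%. In the list of DNA replication and S phase genes the CHR letters were present in 2 of 33 promoters (6.06%) and CCAAT in 20 (60.6%), and in that of replication-dependent histone genes CHR in 17 of 56 (30.4%) and CCAAT in 47 (83.9%). A match shows letters and no binding.

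The DNA replication and S phase genes did not follow the mitotic genes. Of 38, 18 were higher and 20 lower, with 6 higher and 7 lower in every line and a median of -0.018; the median is 0.0086 with arrays centred on their medians and 0.0047 with quantile normalization. CCNE2, cyclin E2 of the G1 to S transition, was 11.86 and 11.21 in SW620, 11.24 and 11.04 in HT29, and 12.31 and 12.18 in HCT116. Thus it was lower in each positive array, and its mean difference was -0.33 ± 0.28 (SD, n = 3). CDC45, a replication helicase subunit, differed by 0.13 ± 0.08, and TK1, thymidine kinase, by 0.13 ± 0.08. In the left-out COLO741, by comparison, 33 of the 38 were higher (45.6% of all genes) and the median was 0.19, and of the mitotic genes 43 of 47 were higher with a median of 0.35.

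Histone genes of the replication-dependent clusters, whose transcripts accumulate while DNA is copied, leaned the same way as the mitotic genes. Of 62, 47 were higher (50.8% of all genes) and 15 lower. In every line 25 were higher and 1 lower (11.9% and 12.4% of all genes). With limma 10 had an unadjusted p under 0.05 (4.22% of all genes), of which 9 were higher. The median was 0.10, made up of 0.080 in SW620, 0.22 in HT29 and 0.016 in HCT116. H3C8 was 10.21 and 10.77 in SW620, 10.59 and 10.88 in HT29, and 6.95 and 7.38 in HCT116. H4C1 was 10.88 and 11.16 in SW620, 10.09 and 10.61 in HT29, and 10.92 and 11.05 in HCT116. Both were higher in each positive array, at 0.43 ± 0.14 and 0.31 ± 0.19, while the linker histone H1-1 was lower in each, at -0.22 ± 0.04 (SD, n = 3). Histone genes of these clusters are near copies of each other, so their probe sets may share signal.

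**Figure D4:**
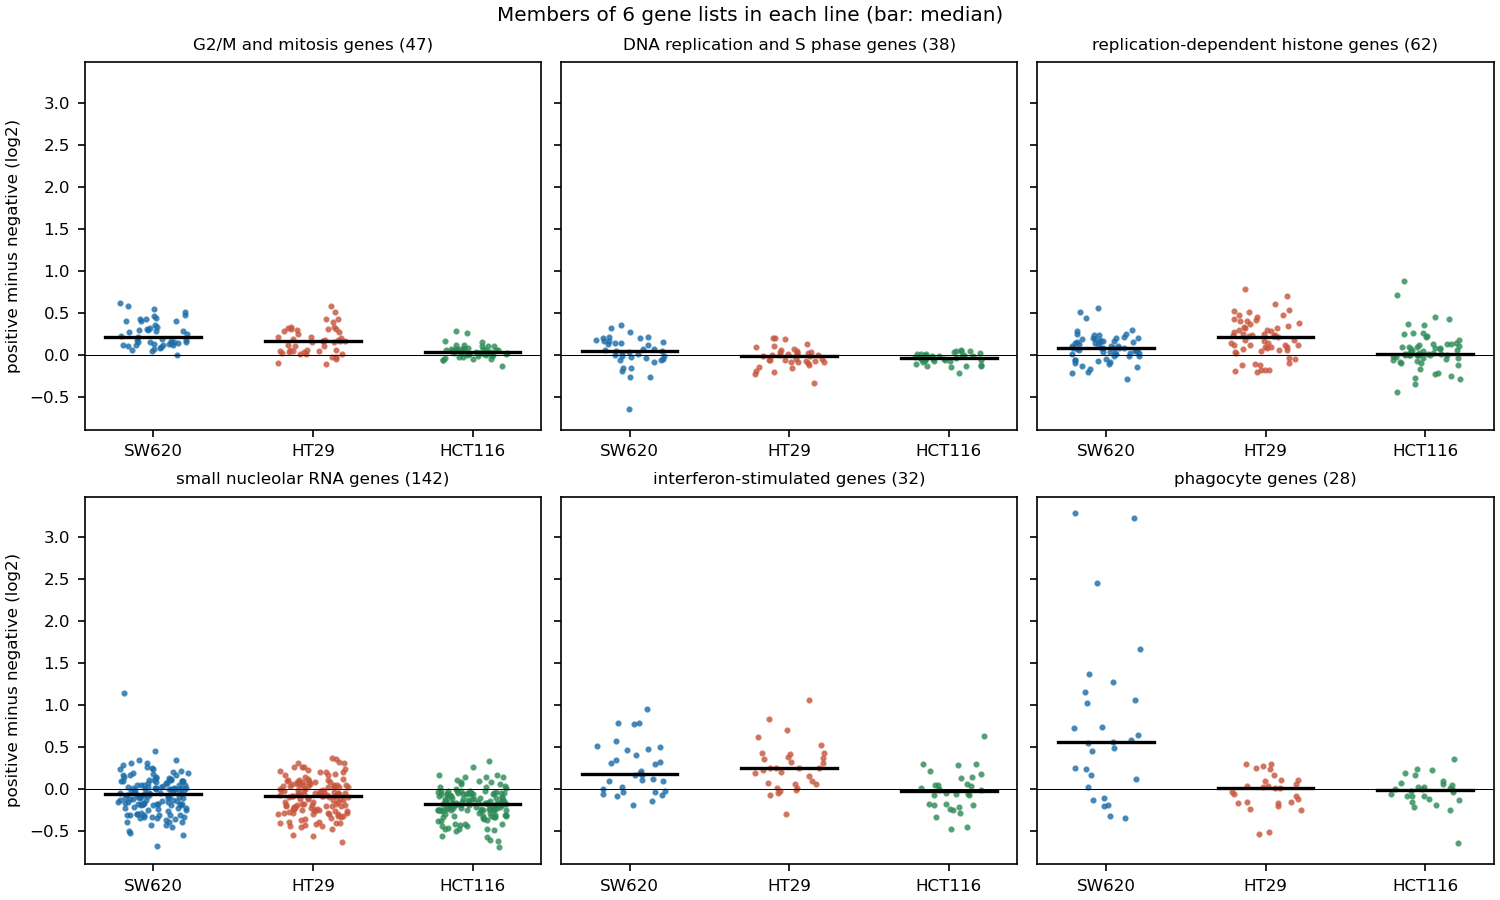
Log2 differences, ABCB5-positive minus ABCB5-negative, are plotted for every tested member of 6 gene lists in each line, with a bar at the median. The G2/M medians are 0.21, 0.16 and 0.034 in SW620, HT29 and HCT116, and the phagocyte genes spread up to 3.28 in SW620 and have medians of 0.011 and -0.0044 in HT29 and HCT116.

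Small nucleolar RNAs were lower in the ABCB5-positive cells for most members. These RNAs guide chemical modification of ribosomal RNA, the C/D box class for methylation and the H/ACA class for pseudouridine, and most are released from introns of host genes. Of 192 on the array 142 were bright enough to be tested. Of these, 114 had a lower mean and 28 a higher mean, where 50.8% of all genes had a higher mean. In every line 49 were lower, which is 34.5% of them against 12.4% of all genes, and 1 was higher. With limma 0 passed and 31 had an unadjusted p under 0.05 (4.22% of all genes), all lower (1.92% of all genes). The median was -0.10, with -0.062 in SW620, -0.076 in HT29 and -0.17 in HCT116, so that here HCT116 had the largest difference. Centring the arrays on their medians gave 104 lower and a median of -0.077.

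SNORD20 was 7.28 and 6.60 in SW620, 7.37 and 6.75 in HT29, and 7.32 and 7.04 in HCT116. SNORD82 was 8.71 and 8.45 in SW620, 9.20 and 8.90 in HT29, and 8.63 and 8.03 in HCT116. Both lie in introns of NCL, the gene of nucleolin, whose own probe set differed by -0.022 ± 0.02 (SD, n = 3) and lay between 13.60 and 13.81 on all 6 arrays. SNORD20 lay below the 95th percentile of the olfactory probe sets on every array. SNORD59A differed by -0.39 ± 0.20 and SNORD77 by -0.33 ± 0.10, each lower in every line. By class, 58 of 68 C/D box RNAs and 48 of 60 H/ACA box RNAs were lower, with medians of -0.14 and -0.086. Spliceosomal and other small nuclear RNAs were lower for 17 of 19, with a median of -0.18, and long noncoding RNAs for 340 of 550, with a median of -0.028. Protein-coding genes had a median of 0.0043, and 50.8% of all genes had a higher mean. Several families hold near-identical copies, such as SNORA70, and their probe sets may share signal.

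Interferon-stimulated genes were higher for most members in SW620 and HT29 and for 14 of 32 in HCT116; the difference between lines was not tested. Interferons bind receptors that switch on, through STAT proteins, a set of antiviral genes such as the IFIT and OAS families. Of 38 genes on the array 32 were tested, and 28 were higher (50.8% of all genes) and 4 lower. In every line 9 were higher and 1 lower, against 11.9% and 12.4% of all genes. With limma 0 passed and 6 had an unadjusted p under 0.05 (4.22% of all genes), all higher. The median was 0.14. It was 0.18 in SW620 with 23 higher (54.0% of all genes), 0.25 in HT29 with 27 higher (48.5%) and -0.027 in HCT116 with 14 higher (45.6%). Without HT29, 21 of 32 were higher, with a median of 0.088. Under the stricter filter at the background's 95th percentile 23 of the 32 were tested, 19 of them higher.

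XAF1, a pro-apoptotic partner of XIAP, was 7.23 and 7.73 in SW620, 6.89 and 7.26 in HT29, and 7.08 and 7.37 in HCT116. IFIT2, an IFIT family member, was 6.29 and 6.60 in SW620, 7.09 and 7.29 in HT29, and 6.16 and 6.79 in HCT116, its largest difference. OAS2, an oligoadenylate synthetase, was 6.58 and 7.15 in SW620, 6.44 and 6.69 in HT29, and 6.21 and 6.39 in HCT116. These 3 members had the smallest p of the list, and IFIT2 and OAS2 lay below the background's 95th percentile on every array. The members that follow were chosen after their values were seen. IFI6, an interferon-inducible mitochondrial protein, was 10.49 and 10.97 in SW620, 8.69 and 9.21 in HT29, and 10.03 and 10.08 in HCT116. SAMD9, an interferon-induced antiviral factor, was 8.86 and 9.38 in SW620, 10.89 and 11.14 in HT29, and 8.80 and 8.93 in HCT116. The positive array of all these genes was the higher in every line, with HCT116 close to 0 for IFI6. DDX60 and IFIT1 were higher in HT29, at 6.07 and 7.13 and at 6.77 and 7.60, and lower in HCT116, at 8.12 and 7.93 and at 7.27 and 7.21. ISG15, a ubiquitin-like protein that interferon raises strongly, was 8.61 and 8.54 in SW620, 8.87 and 8.89 in HT29, and 8.93 and 9.15 in HCT116. PSMB8, a subunit of the immunoproteasome that cuts peptides for antigen presentation, was 7.15 and 7.51 in SW620, 6.52 and 6.91 in HT29, and 6.30 and 6.52 in HCT116. Its list of antigen processing genes as a whole had 10 of 16 higher and a median of 0.015.

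The element that interferon-activated factors bind holds the letters GAAANNGAAA in either strand. It is shown in the promoter of SAMD9, chr7:93117930-93118229 on the minus strand of GRCh38.p14 from RefSeq, with the match in capitals, because this member was higher in all 3 lines and its promoter holds the element.
SAMD9: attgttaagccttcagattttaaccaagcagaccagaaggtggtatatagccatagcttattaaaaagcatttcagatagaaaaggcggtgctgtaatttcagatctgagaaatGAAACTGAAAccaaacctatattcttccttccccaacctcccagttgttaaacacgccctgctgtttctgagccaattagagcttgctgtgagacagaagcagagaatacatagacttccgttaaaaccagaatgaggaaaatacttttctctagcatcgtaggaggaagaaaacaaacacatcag
Of the 25 interferon-stimulated promoters matched, 18 held these letters (72%), against 2.8% of all 13099. The promoter of XAF1 in the same window did not hold them.

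Genes of apoptosis, which the series title names, showed no common direction. Of 19 anti-apoptotic genes, 10 were higher and 9 lower, with a median of 0.0026, and of 35 pro-apoptotic genes, 17 were higher and 18 lower, with a median of -0.017. BCL2, the founding survival protein of its family, was 8.10 and 8.31 in SW620, 7.76 and 7.91 in HT29, and 8.31 and 8.42 in HCT116. The positive array was slightly the higher each time, by 0.15 ± 0.05 (SD, n = 3; limma unadjusted p = 0.053). MCL1 and BCL2L1, the other main survival proteins, differed by -0.052 ± 0.05 and 0.064 ± 0.04. BCL2A1 differed by 0.43 ± 0.28, from values of 5.85 to 6.65 near the background. FAS, the death receptor, was 7.44 and 7.57 in SW620, 8.15 and 8.48 in HT29, and 9.71 and 9.83 in HCT116, again the higher in each positive array, and CASP8, the caspase it recruits, differed by 0.020 ± 0.20. Targets of p53 had 14 of 28 higher and a median of -0.0010; PLK2, a kinase among them, differed by 0.29 ± 0.23.

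Other transporters of drugs and lipids also showed no common direction, with 10 of 21 ABC genes higher and a median of -0.00063. ABCB1, P-glycoprotein, was 8.50 and 8.01 in SW620, 6.52 and 6.32 in HT29, and 7.37 and 7.43 in HCT116. ABCC2, which exports conjugates, was 10.71 and 10.51, 8.07 and 7.37, and 10.58 and 10.58 in the same order. ABCG2, the breast cancer resistance protein, was 5.89 and 6.03, 11.29 and 10.93, and 7.59 and 7.43. The positive arrays were thus equal to or below the negative ones for ABCC2 and on both sides for the others. ABCC5 was higher in every line, at 0.16 ± 0.13 (SD, n = 3). Intestinal stem cell markers had 8 of 19 higher, with a median of -0.010, and Wnt targets 13 of 24, with a median of 0.0011. LGR5, the receptor that marks crypt stem cells, was 12.71 and 12.71 in SW620, 10.30 and 9.86 in HT29, and 6.20 and 6.04 in HCT116, where it is within background. AXIN2, the Wnt feedback gene, differed by 0.00046 ± 0.06.

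Epithelial and mesenchymal genes differed by line. Epithelial junction and keratin genes had 22 of 28 higher in SW620 (54.0% of all genes), with a median of 0.24. They had 12 higher in HT29 (48.5% of all genes) and 15 in HCT116 (45.6%), with medians of -0.027 and 0.017. CDH1, E-cadherin, was 9.98 and 11.46 in SW620, 13.25 and 13.19 in HT29, and 11.26 and 11.19 in HCT116. The negative array of SW620 was thus the lowest of the 6, and its positive array lay above both arrays of HCT116. Of 33 mesenchymal and invasion genes, 19 were higher and 14 lower, with a median of 0.018. In HT29 22 were higher (48.5% of all genes), with a median of 0.093, and in HCT116 18 (45.6%), with a median of 0.0034. In HT29 5 were 1.5-fold higher (1.23% of all genes), and in HCT116 0 (0.280%). In SW620 16 were higher (54.0% of all genes) and their median was -0.017. FN1, fibronectin, at 10.78 and 9.00, was the 1 member that was 1.5-fold lower there, and TGM2, ZEB2, MMP7 and MMP9 were 1.5-fold higher. ITGB6, the epithelial integrin subunit that activates TGF-beta, was 7.55 and 7.91 in SW620, 10.39 and 10.94 in HT29, and 6.32 and 6.72 in HCT116, a mean difference of 0.44 ± 0.10. SNAI2, a repressor of E-cadherin, was 11.33 and 11.62, 6.46 and 6.83, and 8.02 and 8.11. AXL, a receptor kinase named here after its values were seen, differed by 1.01 in HT29, from 8.52 to 9.53, and was 10.34 and 10.45 in SW620 and 11.66 and 11.72 in HCT116.

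**Figure D5:**
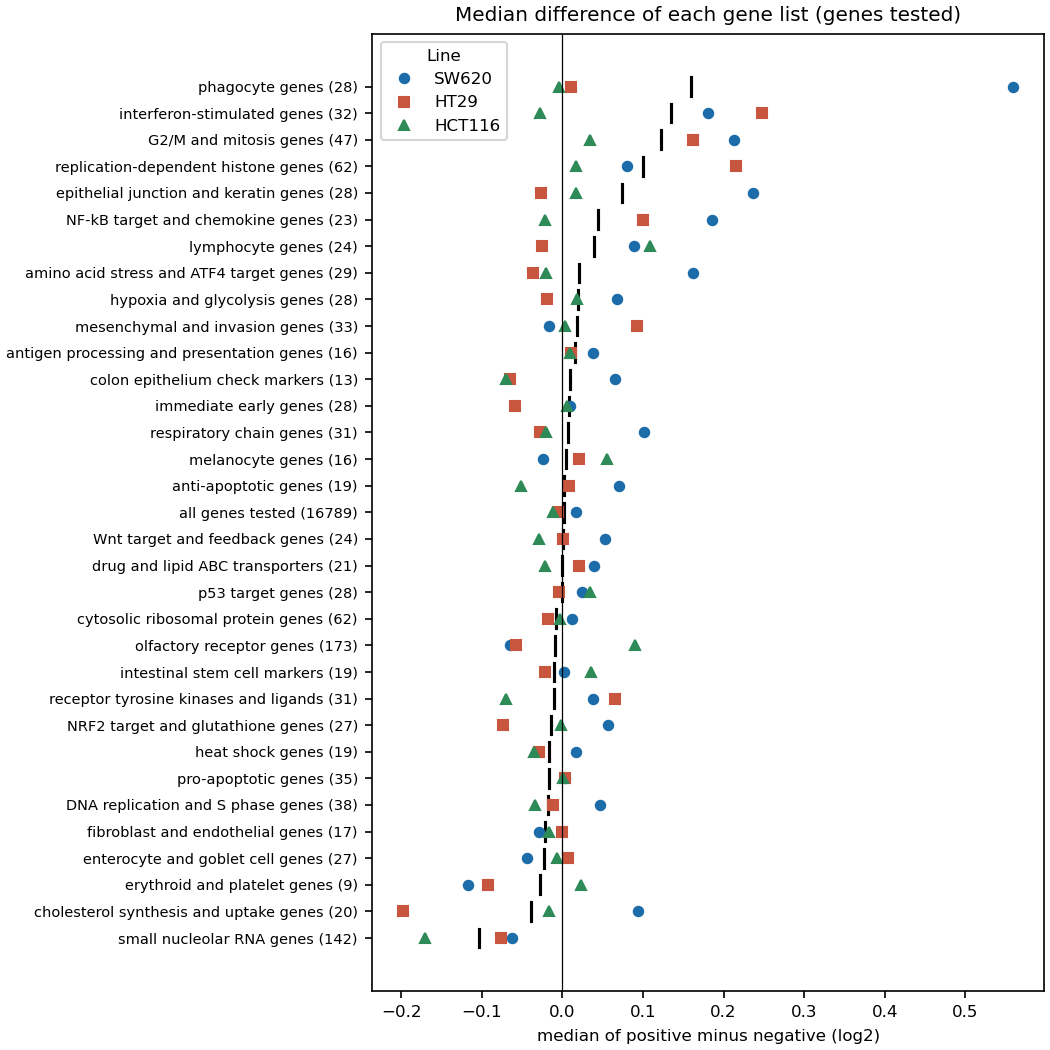
The median log2 difference, ABCB5-positive minus ABCB5-negative, of each gene list is plotted for each line (points) and for the mean over lines (bar), with the number of genes tested in brackets. Phagocyte genes stand at 0.56 in SW620 and near 0 in HT29 and HCT116, small nucleolar RNA genes at -0.10 over the lines, and the median of all genes is 0.0016.

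Among genes above background in a line, the largest single differences came from SW620, 3.28 for CCL2 and 3.22 for CYBB. Both are on the list of phagocyte genes. CLEC3A of HT29, at 2.84, exceeded the next of SW620, FCER1G at 2.45. CCL2, a monocyte chemokine, was 6.89 in the negative and 10.17 in the positive array of SW620, and CYBB, the catalytic subunit of the phagocyte oxidase, was 6.06 and 9.28. FCER1G, an Fc receptor chain of myeloid cells, was 6.48 and 8.93. In HT29 and HCT116 the same genes lay between 6.21 and 7.17 in either population. Of 28 phagocyte genes tested, 12 were 1.5-fold higher in SW620 (1.73% of all genes) and 0 in HT29 (1.23%) or HCT116 (0.280%), and 1, FCER1G, was 1.5-fold lower in HCT116. The medians were 0.56, 0.011 and -0.0044. The filter on dim genes used the mean of the 6 arrays, so a member could pass through its level in the positive SW620 array. Such entry favours the SW620 count and median. The filter kept 28 members with SW620 and 25 without it. The levels of all 33 on the array, summed on the linear scale, were 18115 in the negative and 21774 in the positive array of SW620, 29233 and 27063 in HT29 and 6935 and 6959 in HCT116. In SW620 and HT29 the brightest member made up much of these sums, at 13.57 and 13.39 in SW620 and 14.42 and 14.27 in HT29 (log2). The sums therefore say little about the other members. Above the background's 95th percentile were 10 and 15 of the 33 in SW620. CD14 was 7.37 and 8.74 and LYZ 8.89 and 10.55, while SPI1, the myeloid transcription factor, was 8.19 and 8.05 and C1QA 6.69 and 6.34. Without SW620, 11 of 25 phagocyte genes were higher and the median was -0.0098. Lymphocyte genes also leaned higher over the 3 lines, with 17 of 24 higher (70.8%, against 50.8% of all genes and 75% of the phagocyte genes). Of the 24, 4 had a limma unadjusted p under 0.05 (4.22% of all genes), 3 of them higher. The lymphocyte median was largest for HCT116, at 0.11, against 0.089 for SW620 and -0.026 for HT29. Markers of the remaining cell types were split, with 7 of 17 fibroblast and endothelial, 4 of 9 erythroid and platelet and 8 of 16 melanocyte genes higher over the 3 lines. The part of another cell type in the SW620 array was not tested.

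Also higher in SW620 were TC2N, at 7.58 and 9.92, and PLA2G7, the lipoprotein phospholipase of macrophages, at 5.85 and 8.16. Lower there were ALDH1A2, a retinaldehyde dehydrogenase, at 10.59 and 8.45, F13A1, a transglutaminase of coagulation, at 10.08 and 8.48, and SCG2, secretogranin II, at 9.49 and 7.92. ALDH1A2 and F13A1 lay between 6.64 and 6.80 in the other lines. SLC14A1, a urea transporter, ran oppositely in 2 lines, 8.63 and 7.04 in SW620 but 6.41 and 8.32 in HT29. The largest higher differences of HT29 were in CLEC3A, a C-type lectin, at 8.09 and 10.94, SLC14A1, PADI2, which converts arginine to citrulline, at 7.83 and 9.74, and HIP1, at 7.17 and 9.00. Its largest lower differences were in AGMO, at 8.75 and 7.35, HHLA2, a B7 family ligand, at 10.78 and 9.70, and ANXA13, an intestinal annexin, at 9.80 and 8.75. The largest higher differences of HCT116 were in TRIM29, ZNF773, at 7.80 and 8.95, SNX29P2, at 6.72 and 7.74, and QPRT, of NAD synthesis, at 7.94 and 8.82. Its largest lower differences were LOC399975, at 8.47 and 7.49, and SSTR1, a somatostatin receptor, at 8.03 and 7.06. Each of these rests on 1 array per population and has no replicate check.

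For some genes the 1 pair of the left-out line differed from the colon lines in the same contrast. In a limma model of all 8 arrays with an interaction term, 55 of 16789 genes (0.328%) had a COLO741 difference that differed from the mean of the 3 colon lines at an adjusted p under 0.05, the lowest being 0.0126. The genes named here were chosen after their values were seen. PSAT1, of serine synthesis, differed by 2.88 in COLO741, from 8.59 to 11.46, and by 0.042 ± 0.14 (SD, n = 3) in the colon lines. PM20D2 was 7.41 and 10.17 in COLO741 and differed by -0.063 on average in the colon lines. IRF4, a pigment cell and lymphocyte transcription factor, was 10.37 and 8.67 in COLO741 and differed by 0.27 in the colon lines. COLO741 has 1 pair, assumed to vary like the colon pairs. The standard deviation of its differences over genes was 0.31, against 0.24 in SW620, 0.20 in HT29 and 0.15 in HCT116. With 1 pair, a different response and a noisier pair cannot be told apart. The number of genes past the threshold was 0 without HCT116, 34 without SW620 and 84 without HT29, 1 with ordinary least squares and 417 with a trended robust variance.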

How the data were processed

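The 6 arrays of SW620, HT29 and HCT116 are Affymetrix Human Gene 1.0 ST arrays of total RNA from sorted cells. The authors deposited log2 values for 33297 probe sets, made with Affymetrix Expression Console per the submitters' processing notes. Their range of 2.99 to 15.24 gave the scale; how they were summarised and normalized is not given here. Array medians were 8.03 to 8.10, and the values were used as deposited. Of the probe sets, 19460 had 1 gene symbol, 1754 several and 12083 none listed, and symbols were updated through GRCh38.p14 gene identifiers for 19429. For 769 genes with several probe sets, the probe set of highest mean over 8 arrays was taken. The 1628 genes with a mean below 5.76, the median of 360 olfactory receptor probe sets, were left out.

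Differences were tested with limma 3.58.1 (R 4.3.3, lmFit and eBayes, two-sided, Benjamini-Hochberg at 0.05), with the line as a fixed block, leaving 2 residual degrees of freedom plus 3.39 from moderation. Pairing follows the cell line named in the labels; deviations from the population means correlated, within a line, at 0.941 to 0.960. An exact sign-flip test served for ABCB5. Named genes are ABCB5, the 12 per direction of smallest unadjusted p with 1 sign in all lines and an array of each line above the 95th percentile of the olfactory probe sets, the 3 members of smallest p of each list, and the 5 largest differences per direction in each line; no gene was 1.5-fold different the same way in all lines, and 2 Y-linked genes are not reported here. Other genes in the text were chosen after their values were seen. Members, lists and the naming rule were chosen with earlier results of these data known, so list counts are descriptions without a test. The alternatives tried were other normalizations, filters, probe set rules, variance models, no block, a random block, COLO741 included and leaving out each line. The number of arrays limits the precision.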

Additional observations from a re-analysis of the deposited data

Results flagged for a closer look

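The difference between ABCB5-positive and ABCB5-negative cells in COLO741 was set against the mean difference of SW620, HT29 and HCT116 by an interaction term in limma, and 55 of 16789 genes passed at an adjusted p under 0.05 (0.328%), which is a difference between cell lines under the same contrast. At an unadjusted p under 0.05 there were 2258 genes (13.4%).

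IL7R, the interleukin-7 receptor subunit, was the only one of the genes named by rule that passed at the adjusted threshold. It was 7.62 and 7.11 in the negative and positive arrays of SW620, 5.71 and 5.16 in HT29, and 5.78 and 5.62 in HCT116, all at or below the 95th percentile of the olfactory background of 7.50 except the negative SW620 array, but 6.88 and 9.08 in COLO741. The COLO741 difference exceeded the mean of the colon lines by 2.60 (limma adjusted p = 0.019), with the colon lines lower in 3 of 3 pairs.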

How the results depend on the processing

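The count of 0 genes past the threshold in the colon lines held under every alternative run: without a replicate block, with a random block, under ordinary least squares or a trended robust variance, with no or a stricter filter, quantile normalization, median centring, the mean of a gene's probe sets, every probe set, COLO741 included and without each line in turn. The replicate block by cell line changed no call, and without it 22 genes instead of 709 had an unadjusted p under 0.05. The ABCB5 difference of 0.088 turned to -0.25 with COLO741 included, whose pair differed by -1.28, and leaving out 1 line gave -0.012 (without HCT116) to 0.19; the interaction count of 55 was 1 with ordinary least squares, 417 with a trended robust variance, 33 with the stricter filter, 0 over every probe set and 0 to 84 when 1 line was left out (34 without SW620), and the cause was not tested. Of 1388 alternatives for 109 named genes, 1384 kept the sign. This count cannot show robustness, because many of these genes were chosen for a small p or the same sign in every line. Leaving out 1 line cannot reverse a gene of the same sign in every line. Changing the block or the variance model leaves the estimate of any gene unchanged. The 4 that reversed had COLO741 included. They gave 0.22 for ERAP2, 0.10 for TNFRSF19, 0.047 for HBEGF and 0.24 for IL7R, whose COLO741 pairs were higher. Of 297 alternatives for list medians, 36 moved by more than the spread between lines, in lists other than the G2/M, interferon, histone, small nucleolar RNA and phagocyte genes. For a list driven by 1 line this spread is wide, so the count cannot show that its median is stable. The phagocyte median went from 0.16 to -0.0098 without SW620 and was not counted as moved. Arrays limit what can be seen near the background, where ABCB5, most phagocyte genes and some interferon-stimulated genes lay.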

Other observations

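Cholesterol synthesis and uptake genes were lower in the ABCB5-positive cells of HT29 for 19 of 20 members, where 48.5% of all genes were higher. Their median was -0.20 in HT29, 0.094 in SW620 and -0.016 in HCT116. INSIG1, which holds the sterol sensor in the endoplasmic reticulum, was 10.40 and 9.74 in HT29, 8.44 and 8.54 in SW620, and 9.82 and 9.72 in HCT116. MSMO1, a sterol methyl oxidase, was 12.09 and 11.58 in HT29, 11.38 and 11.30 in SW620, and 12.19 and 12.15 in HCT116. Genes of amino acid stress that ATF4 drives were higher for 25 of 29 in SW620 (54.0% of all genes), with a median of 0.16. They were higher for 10 in HT29 (48.5% of all genes) and 13 in HCT116 (45.6%). ASNS, asparagine synthetase, was 9.75 and 10.45 in SW620, 10.60 and 10.57 in HT29, and 10.66 and 10.74 in HCT116, and DDIT4, an inhibitor of mTORC1, was 7.52 and 8.71 in SW620, 8.72 and 8.69 in HT29, and 9.71 and 9.81 in HCT116. Respiratory chain genes were higher for 26 of 31 in SW620 (54.0% of all genes), 12 in HT29 (48.5%) and 8 in HCT116 (45.6%). These differences between lines were not tested.

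Among receptor tyrosine kinases and their ligands, HBEGF, a ligand of the EGF receptor, was 9.93 and 9.41 in SW620, 10.67 and 10.21 in HT29, and 10.62 and 10.52 in HCT116. FGFR3 was 8.51 and 8.38, 10.62 and 10.20, and 9.69 and 9.51, and EGR1, an immediate early transcription factor of the same signalling route, was 11.55 and 10.99, 12.37 and 12.11, and 12.27 and 12.13. Each was the lower in the positive array of every colon line, while in COLO741 HBEGF was 10.18 and 11.45. Their lists as a whole were split, with 15 of 31 receptor and ligand genes and 16 of 28 immediate early genes higher. NF-kB targets and chemokines had 18 of 23 higher (50.8% of all genes), with a median of 0.045 over the lines. Hypoxia and glycolysis genes had 20 of 28 higher (50.8% of all genes) and NRF2 targets and glutathione genes 12 of 27. Higher were also 8 of 19 heat shock, 13 of 27 enterocyte and goblet cell and 29 of 62 cytosolic ribosomal protein genes.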
